A study of Bos taurus with 18 samples.

Results

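The miR-2284 and miR-2285 families were examined in small RNA libraries of rumen papillae, the finger-like projections that line the forestomach in which ruminants ferment feed. Members were all mature miRNA names that begin with bta-miR-2284 or bta-miR-2285, with any letter, copy or arm, listed in at least 1 library. The library files held 101 such names of 966 in all, 22 of miR-2284 and 79 of miR-2285. The 18 libraries came from non-lactating Holstein cows, 9 in all, that first ate forage only (FD) and then a high-grain diet with 65% concentrate (HG). Control cows (CON) gave 5 libraries on each diet, and cows in an arm labelled PHY, a supplement whose content the labels do not give, gave 4 on each. The labels do not say whether the supplement was already fed during the forage period, and they do not tie a replicate number to a cow. Every cow was on forage before grain, so that diet and time cannot be told apart, and p-values treat libraries as independent.

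A miRNA is a short RNA that guides Argonaute proteins to messenger RNAs with matching sites and lowers their translation or stability. The bases near its 5′ end, the seed, largely determine which messages it reaches. miR-2284 and miR-2285 are large families of related hairpins scattered over the genomes of cattle and other ruminants, many of which are near-copies of each other. A sequencing read from one copy can therefore match several members, and counting it is a question of assignment as well as of abundance.

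The RefSeq annotation of the cattle genome (assembly ARS-UCD2.0) holds 191 genes of these families on 30 chromosomes, under 138 names, of which 25 have more than 1 copy. MIR2284Y, MIR2284Z and MIR2285N have 7 copies each, and MIR2285K, MIR2285M and MIR2285O have 5 each. Of the 191 genes, 65.4% lay within the span of a protein-coding gene, beside 65.3% of the 841 other miRNA genes of the annotation. The library files placed the members at 116 hairpins on 29 chromosomes. The RefSeq table held 105 of these hairpins, all 105 on the same chromosome, and 76 of them (72.4%) lay within a protein-coding gene. The table gives neither strand nor exons, so that a position within a gene's span is all that can be stated for these host genes, and no coordinates are given because the labels and files name no build.

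The library totals ranged from 5.74 to 15.2 M (mega-reads) counted once per miRNA (mean 9.60 M, n = 18). Each library listed between 49 and 65 of the 101 members (mean 58.2). The fewest were in HG_CON 1, the library with the lowest total, while 65 were listed both in FD_CON 1 with 12.1 M reads and in HG_CON 4 with 9.59 M. The files list a name only from 2 reads upwards, and a name that is not listed had fewer. Of the members, 27 were listed in all 18 libraries, 48 in 9 or fewer and 16 in a single library. Epithelial marker miRNAs of the tissue were present, 6 of 7 under the names sought, with a summed level of 52551 to 71561 CPM (reads per mega-read after scaling) on forage and 50196 to 69567 on grain. The seventh, miR-203, was not listed under that name. Muscle marker miRNAs were present too, 6 of 6, with a sum of 129264 to 297900 CPM on forage and 102603 to 133027 on grain. This sum does not give the level of each marker. Of the reads counted once, miR-143 alone made up 12.5% to 23.3% on forage and 9.52% to 14.1% on grain. Leukocyte markers (7 of 7) came to 5432 to 7972 CPM on forage and 4836 to 7850 on grain, and erythroid markers (3 of 3) to 6404 to 14199 and 6415 to 18352. Their part in the results below was not tested.

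Reads fell on few members. The raw counts, in which a read is entered under every name it matches, came to 240818 reads over all members and libraries. The adjusted counts, in which a read is divided over the places it maps to, came to 173718. When names that share a listed position were merged and represented by the name with the most reads, 101 names became 92 miRNAs. Their reads, called counted once here, came to 226333. Names that share reads but were listed at different positions stayed apart, so a read may still be entered more than once in this count. Of the 226333 reads, miR-2284x alone held 47.3%, and the highest 5 miRNAs held 82.6%. By mean level over the 18 libraries, 3 names reached at least 100 CPM, 14 lay between 10 and 100, 17 between 1 and 10, and 67 below 1.

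miR-2284x averaged 629 CPM and ranked 90 among the 824 miRNAs of the data. Its hairpin on chromosome 1 lies within TIAM1, a guanine exchange factor for the GTPase Rac. The next was miR-2285bf at 259 CPM (rank 123), which the files place at 3 hairpins. One on chromosome 6 lies within FRAS1, an extracellular matrix protein of epithelial basement membranes. Another, on the X chromosome, lies within PCYT1B, an enzyme of phosphatidylcholine synthesis. The last, also on chromosome 6, was not among the hairpins that the RefSeq table held. miR-2285bc at 117 CPM (rank 153) lies on chromosome 3 within ORC1, a subunit of the origin recognition complex. These 3 names are the members above 100 CPM. Below them stood miR-2285p at 53.2 CPM, on chromosome 13 within MPP7, a scaffold protein of cell junctions, and miR-2285k at 38.9 CPM, which the files place on chromosomes 1, 3 and 13. miR-2284aa and miR-2284z had the same reads, 34 CPM. miR-2285t, within the Fc receptor gene FCGR2B on chromosome 3, had 33 CPM, and miR-2284y and miR-2285av, which share their reads as well, 24.9 CPM.

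How a read is assigned changed the level of some members by more than 10 times and of others not at all. For 50 of the 101 names the adjusted count equalled the raw count, for 15 it lay between 0.5 and 1 of it, and for 36 it was at most 0.5 of it. For 6 it was at most 0.1. Among names with at least 100 raw reads in all, the ratio of raw to adjusted reads was highest for miR-2285cf (15.7), miR-2285au (14.6), miR-2284aa and miR-2284z (13.9 each) and miR-2285av (11.9). miR-2284y, with 7 annotated copies, had a ratio of 11.8. miR-2284x, miR-2285bc, miR-2285p, miR-2285t and miR-2284w had ratios between 1 and 1.04.

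**Figure D1:**
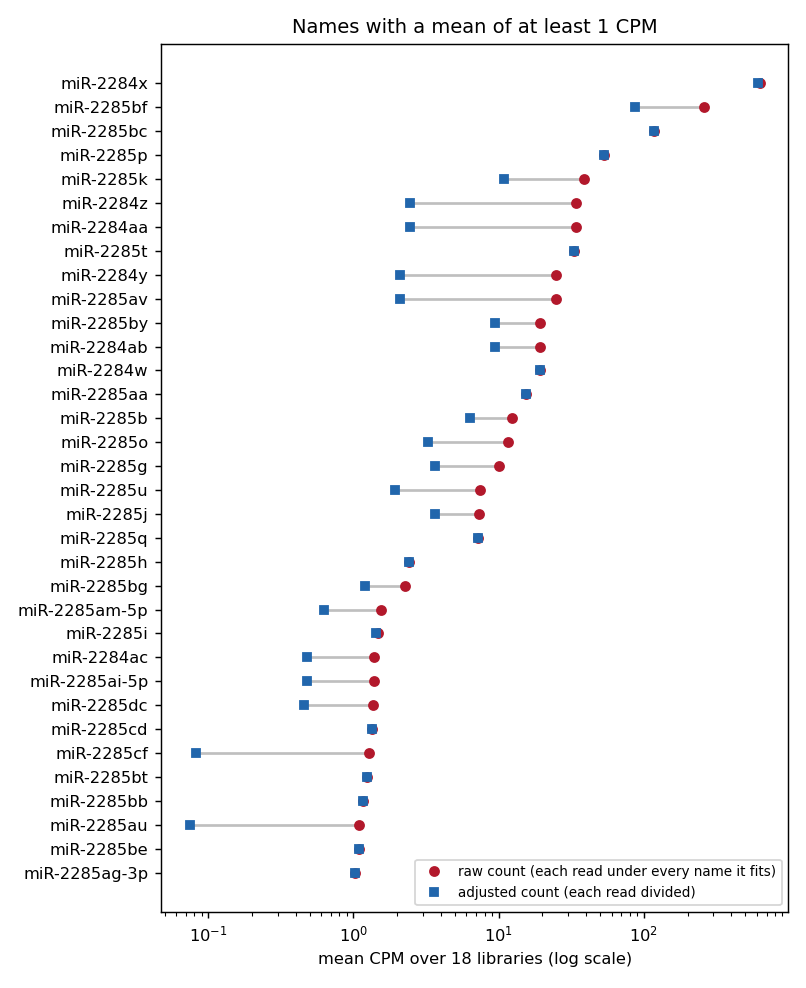
Mean level over 18 libraries (CPM, log axis) of each member name with a mean of at least 1 CPM, as raw count (circles) and adjusted count (squares), joined by a line. miR-2284x and miR-2285bc keep their level under both counts, while miR-2284aa and miR-2284z move from 34 to 2.43 CPM.

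The order of the members depended on the count. miR-2284x was first by both. miR-2285bf, second by raw counts, was the third by adjusted counts at 87.2 CPM, behind miR-2285bc. miR-2284aa moved from place 6 to 16 and miR-2284y from 9 to 19, while miR-2284w rose from place 13 to 6. Of the highest 10 names by raw count, 6 were also among the highest 10 by adjusted count. The adjusted count divides a read among the copies of a single name as well as among names, so the sum of a name with many copies is understated by it, and the raw count overstates a sum over names that share reads.

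Several members were neighbours. miR-2284x and miR-2284i lie within TIAM1 on opposite strands, 27526 nt apart. On chromosome 5, miR-2284h-3p and miR-2285o overlap by 18 nt on opposite strands, and on chromosome 20 miR-2285f and miR-2285q overlap by 21 nt on opposite strands. On chromosome 13, miR-2284y and miR-2285u lie on opposite strands with a gap of 16 nt, which is similar to the gaps of 18 and 19 nt between the arms of single hairpins, miR-2284h and miR-2284t. The files listed 6 members only at a hairpin of another name, among them miR-2284aa at copies of mir-2284z and miR-2285bg at mir-2285u.

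Family members were sparser than most bovine names, though not than those of the next number block. Of the members, 26.7% were listed in all 18 libraries, beside 62.8% of 514 other bovine names outside the next number block and 16.0% of the names in that block, bovine miRNAs numbered from miR-2286 to miR-2490. The median total over all libraries was 56 raw reads for the members, 23.5 for that block and 937 for the other bovine names. Heavy sharing of reads was not a feature of sparse names in general. A ratio of adjusted to raw count of at most 0.5 was found for 35.6% of the members, 4.86% of the block and 38.1% of the other bovine names. The files also held 207 human names, 60.9% of them with such a ratio, and a bovine name can share its reads with a human one. How much of the 38.1% is sharing with human names was not tested. These are descriptions of name lists, with no test.

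At a given level the members varied between libraries about as much as other miRNAs. Members between 10 and 100 CPM had a median coefficient of variation of 26.9% over 18 libraries (range 12.6% to 36.4%, 11 miRNAs), and the 107 other miRNAs of that level 25.5%. The steadiest were miR-2284x (10.5%) and miR-2284y (12.6%), and the most variable of at least 10 CPM was miR-2284ab (36.4%), within the elongation factor gene AFF1 on chromosome 6. Members under 10 CPM had a median of 54.3%, beside 51.1% for 177 others.

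The share of all adjusted reads that fell on the families was 0.122% ± 0.0114 in FD_CON (SD, n = 5), 0.137% ± 0.00553 in FD_PHY (n = 4), 0.148% ± 0.00963 in HG_CON (n = 5) and 0.155% ± 0.0143 in HG_PHY (n = 4). Forage libraries lay between 0.110% and 0.144% and grain libraries between 0.137% and 0.175%. All 9 grain libraries were above the forage mean and 6 of them above every forage library, and the mean was 17.2% higher on grain. With raw counts the difference was 11.4%, and with reads counted once it was 13.0%. No test is given for a sum over members.

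A share also moves with the miRNAs in its denominator. The abundant miR-143, a muscle and mesenchymal miRNA, made up a mean of 14.9% of the reads counted once on forage and 11.3% on grain. The medians were 13.4% and 11.3%, and the diets overlapped, at 12.5% to 23.3% on forage and 9.52% to 14.1% on grain. After TMM scaling, which sets libraries to a common level over most miRNAs, the summed family level by adjusted counts was 982 ± 47.3 CPM over the forage libraries and 1061 ± 69.4 CPM over the grain libraries (SD, 9 libraries each). It was 8.06% higher on grain, with 8 of 9 grain libraries above the forage mean and 5 above every forage library. With reads counted once it was 1296 ± 67.5 CPM over the forage libraries and 1358 ± 74.7 CPM over the grain libraries, 4.78% higher, and 7 of 9 grain libraries were above the forage mean. Without miR-2284x the level by reads counted once was 695 and 701 CPM. For adjusted counts the level without miR-2284x was not computed, so this does not give the part of miR-2284x in the 8.06%. Whether the reads of miR-143 bear on the difference in share was not tested beyond this.

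**Figure D2:**
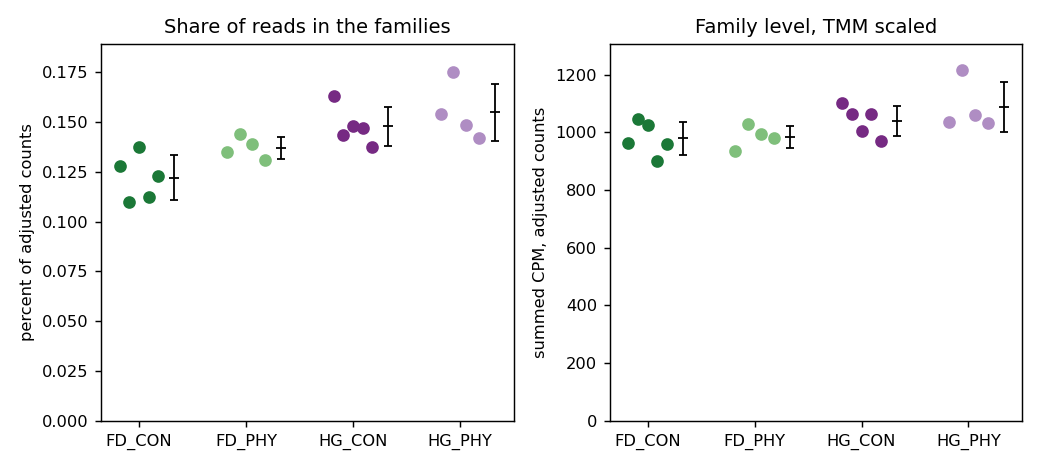
Left, percent of adjusted reads in the families, and right, their summed adjusted counts after TMM scaling (CPM), per library (points) with the mean and SD of each group (bars). Of 9 grain libraries, 6 are above every forage library by share and 5 by scaled level, and the means are 17.2% and 8.06% higher on grain.

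Of the 92 merged members, 30 passed the filter on low counts and were tested among 468 miRNAs with edgeR's quasi-likelihood test. These 30 stand for 36 names. The other 62 were too sparse for a test, and the 30 are not the families as a whole. For the effect of diet averaged over both arms, 0 of the 30 passed an adjusted p of 0.05 with edgeR, and 0 with DESeq2, against 0.214% (1 miRNA) of all 468 with edgeR and 5 miRNAs with DESeq2. At an unadjusted p under 0.05, edgeR gave 1 member (3.33%), against 10.7% of all miRNAs tested, and DESeq2 gave 1. Here and below, the share of all miRNAs at this unadjusted threshold is that of edgeR, and none was counted for DESeq2. DESeq2 gave no adjusted p for 12 of the 30 in this comparison. In direction, 19 members had a higher and 11 a lower fitted level on grain, with a median log2 change of 0.11, beside a median of -0.01 and 49.1% higher over all 468.

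The precision of these comparisons was set by the level. For the 14 members of at least 10 CPM the log2 changes lay between -0.23 and 0.26, and the 95% intervals had half-widths of 0.17 to 0.45, so that the intervals of the fold change reached from 0.701 to 1.64. For the 16 members below 10 CPM they reached from 0.176 to 3.83. The intervals describe the estimates and are not a limit of detection, since calls were made on the adjusted p. The interval of miR-2285q did not include 0, and its adjusted p was 0.317 (edgeR).

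**Figure D3:**
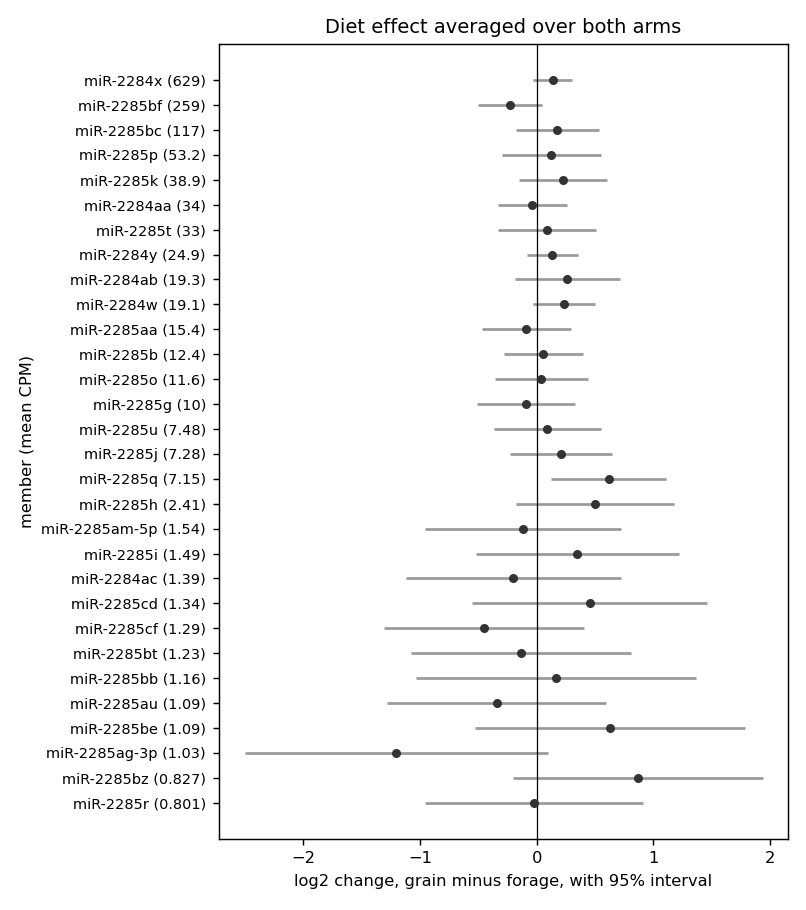
Log2 change from forage to grain averaged over both arms (points) with the 95% interval (lines) for the 30 tested members, ordered by mean CPM given in brackets. The intervals widen downwards with falling level, and that of miR-2285q is the only one that does not include 0.

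miR-2284x, the dominant member, had 584, 660, 672, 552 and 578 CPM in FD_CON, 538, 617, 587 and 623 in FD_PHY, 674, 621, 558, 691 and 600 in HG_CON, and 678, 820, 643 and 634 in HG_PHY. The diets overlapped in CON and did not in PHY, where each grain library was above each forage library. The highest library was HG_PHY 2, and 7 of 9 grain libraries were above the forage mean. The log2 change with diet was 0.14 ± 0.08 (SE), with a 95% interval of -0.03 to 0.31 and an adjusted p of 0.528 (edgeR).

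miR-2285bf went the other way in its means, without passing the test. It had 231, 358, 276, 304 and 237 CPM in FD_CON, 270, 317, 303 and 208 in FD_PHY, 192, 344, 302, 218 and 224 in HG_CON, and 170, 217, 250 and 243 in HG_PHY. The lowest library was on grain and the highest on forage, with a broad overlap, and 7 of 9 grain libraries were below the forage mean. The log2 change was -0.23 ± 0.13 (adjusted p = 0.528, edgeR). miR-2285bc averaged 109 ± 24.4 CPM over forage and 125 ± 37.8 CPM over grain libraries (SD, 9 libraries each), and its libraries ranged from 82.8 to 190 CPM.

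**Figure D4:**
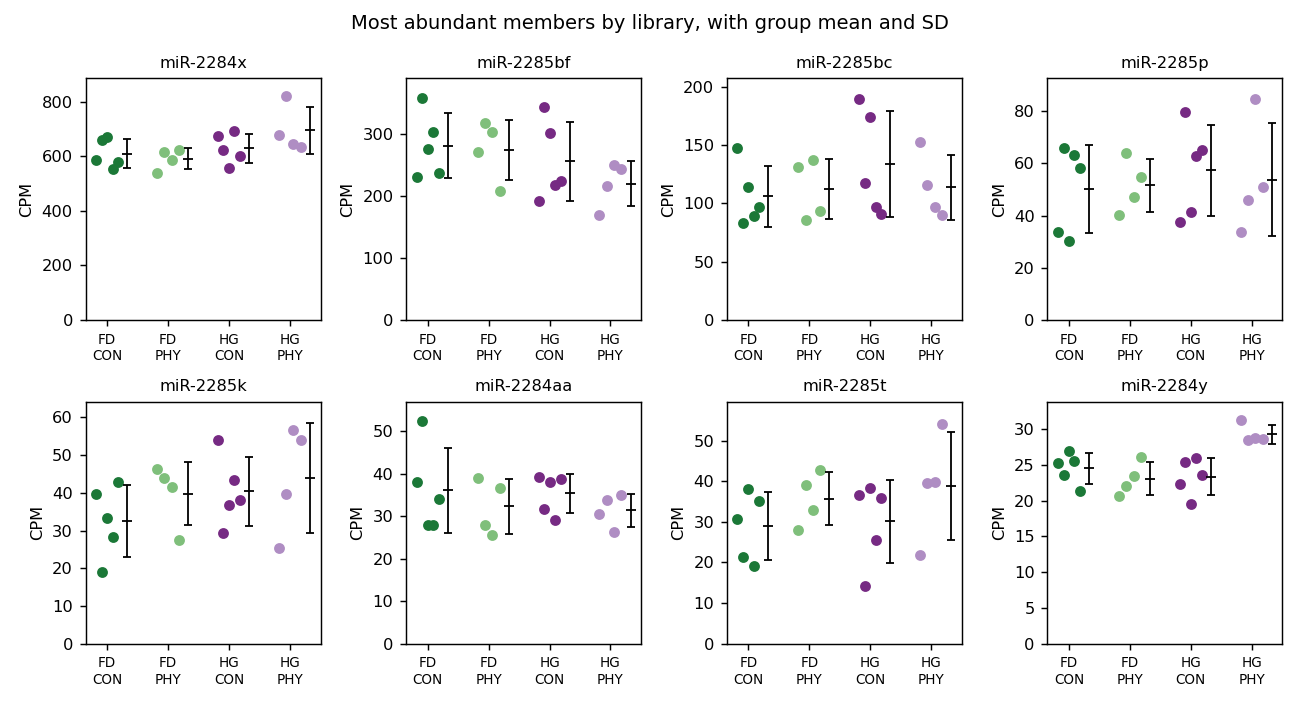
Level (CPM, axes from 0) of the 8 members with the highest raw counts, with names that share all reads shown once, per library in the 4 groups (points) with the group mean and SD (bars). Of these 8 members, miR-2284y has HG_PHY libraries above all libraries of the other groups and miR-2284x has HG_PHY libraries above those of FD_PHY, and all other pairs of groups overlap.

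The member with the lowest p for diet was miR-2285q, on chromosome 20 within the splicing regulator gene SREK1. It had 3.24, 2.58, 5.05, 4.73 and 10.2 CPM in FD_CON, 5.12, 7.92, 6.56 and 5.15 in FD_PHY, 10.4, 8.33, 10.2, 9.39 and 5.05 in HG_CON, and 10.7, 9.22, 7.47 and 7.40 in HG_PHY. Of 9 grain libraries, 8 were above the forage mean of 5.62 CPM. In CON the groups overlapped through FD_CON 5, the highest on forage, and HG_CON 5, the lowest on grain. The log2 change was 0.62 ± 0.24 (95% interval 0.12 to 1.11, unadjusted p = 0.0166 and adjusted p = 0.317, edgeR). With 1 library left out at a time it ranged from 0.52 to 0.82, the highest without FD_CON 5 (adjusted p = 0.0699, edgeR). In CON alone, with all libraries, the log2 change was 0.75 ± 0.32 (adjusted p = 0.397). These values rest on 32 to 109 reads per library.

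miR-2285ag-3p, on chromosome 28 within the calcium channel gene RYR2, was one of the sparsest members tested, at a mean of 1.03 CPM. Its raw reads were 34, 24, 35, 11 and 24 in FD_CON, 5, 10, none listed and 4 in FD_PHY, 4, none listed, 3, 2 and 19 in HG_CON, and none listed, 2, 5 and 8 in HG_PHY. FD_CON stood above the other groups except for HG_CON 5, so that the same libraries entered the comparison of diets in CON and that of arms on forage. The log2 change with diet was -1.86 ± 0.77 in CON (adjusted p = 0.397) and -1.20 ± 0.62 averaged over both arms (adjusted p = 0.468), and PHY against CON on forage gave -2.07 ± 0.85 (adjusted p = 0.929, edgeR). With 1 library left out at a time the change in CON ranged from -3.08 to -1.54, and -3.08 was the value without HG_CON 5 (adjusted p = 0.186, edgeR).

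Within single arms the picture was the same. For diet in CON, 0 of 30 members passed with edgeR and 0 with DESeq2, against 0% of all 468. Both tools gave 2 (6.67%) at an unadjusted p under 0.05, against 10.7% of all with edgeR. For diet in PHY, 0 passed with either tool, against 0% of all. At an unadjusted p under 0.05, edgeR gave 2 (6.67%), against 7.05% of all, and DESeq2 gave 3. The lowest p in PHY belonged to miR-2284y, with a log2 change of 0.34 ± 0.16 (adjusted p = 0.684), then to miR-2284w with 0.40 ± 0.19 (0.695) and miR-2284x with 0.23 ± 0.12 (0.737). In CON, miR-2285u followed miR-2285ag-3p and miR-2285q with 0.53 ± 0.29 (0.582).

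The comparison of PHY with CON on forage found 0 of 30 members with edgeR and 0 with DESeq2. Of all 468, edgeR called 0% and DESeq2 called 1 miRNA. Both tools gave 2 members (6.67%) at an unadjusted p under 0.05, against 4.7% of all with edgeR. Apart from miR-2285ag-3p these included miR-2285i, on chromosome 8 at 30.7 kb from KLF9, a zinc-finger transcription factor gene, with a log2 difference of 1.32 ± 0.60 (adjusted p = 0.929). It averaged 0.801 ± 0.537 CPM in FD_CON and 2.02 ± 1.09 in FD_PHY, with 3 to 33 reads per forage library. miR-2285g had 0.41 ± 0.28 (adjusted p = 0.929).

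On grain, PHY against CON gave 0 members with edgeR and 0 with DESeq2. Of all 468, edgeR called 0% and DESeq2 called 2 miRNAs. Both tools gave 4 members (13.3%) at an unadjusted p under 0.05, against 6.84% of all with edgeR. The lowest was miR-2285u, with 7.76, 16.1, 6.61, 10.2 and 12.4 CPM in HG_CON and 2.90, 4.61, 6.62 and 5.61 in HG_PHY. On forage it had 5.12, 9.12, 6.49, 5.53 and 10.5 CPM in FD_CON and 5.27, 7.40, 4.67 and 7.83 in FD_PHY. By these raw counts the HG_PHY libraries were the low ones and overlapped HG_CON at 1 library, HG_CON 3. By adjusted counts the groups overlapped more, with 1.38, 2.92, 1.17, 1.77 and 6.06 CPM in HG_CON and 0.545, 2.21, 1.18 and 1.03 in HG_PHY. The log2 difference by raw counts was -1.09 ± 0.32 (unadjusted p = 0.00260 and adjusted p = 0.286 with edgeR, adjusted p = 0.0668 with DESeq2). Adjusted counts moved the log2 difference of no member tested with both by more than 0.196 in this comparison. As set out below for miR-2285bg, the reads of miR-2285u were listed at another hairpin in HG_CON 5 and HG_PHY 2 than in the other grain libraries, and the difference was -1.03 without the former and -1.09 without the latter.

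miR-2284w, on the X chromosome within DOCK11, an exchange factor for the GTPase CDC42, had 17.9, 19.6, 18.7, 17.1 and 14.5 CPM in HG_CON and 24.7, 29.9, 22.7 and 21.1 in HG_PHY. These groups did not overlap. On forage it had 12.9 to 22.1 CPM in FD_CON and 16.9 to 21.3 in FD_PHY, which overlapped. The log2 difference on grain was 0.49 ± 0.18 (adjusted p = 0.574, edgeR). All reads of miR-2284w belonged to it alone by the adjusted count.

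miR-2284y had 22.3, 25.4, 19.5, 25.9 and 23.6 CPM in HG_CON and 31.3, 28.5, 28.7 and 28.6 in HG_PHY, again without overlap, with a log2 difference of 0.32 ± 0.15 (adjusted p = 0.677). With adjusted counts the groups overlapped, at 1.67 to 2.35 CPM in HG_CON and 2.17 to 2.40 in HG_PHY, and the log2 difference was 0.13 ± 0.26 (adjusted p = 0.887, edgeR). One of its listed hairpins is the neighbour of mir-2285u on chromosome 13. miR-2284ab had 0.69 ± 0.30 (adjusted p = 0.677), at 16.6 ± 6.27 CPM in HG_CON and 26.8 ± 3.73 in HG_PHY.

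For the interaction of diet and supplement, 0 of 30 members passed with edgeR and 0 with DESeq2, against 0% of all. At an unadjusted p under 0.05, edgeR gave 0 members, against 2.14% of all, and DESeq2 gave 1. The lowest p-values were those of miR-2285u (log2 -0.88 ± 0.44), miR-2284y (0.41 ± 0.21) and miR-2285aa (-0.60 ± 0.37), each with an adjusted p of 0.997 (edgeR).

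The choice between raw and adjusted counts moved the changes of a few members. Of the 30 tested members, 26 could be tested with both. For diet averaged over both arms, 24 of these had the same direction, the median difference between the log2 changes was 0.0099, and the largest was that of miR-2285u, 0.09 with raw and -0.04 with adjusted counts. They were larger for miR-2284y in PHY against CON on grain, in the diet effect in PHY and in the interaction. Its interaction value was 0.41 with raw and 0.13 with adjusted counts, and its diet effect in PHY was 0.34 and 0.15. The other 4, miR-2284ac, miR-2285am-5p, miR-2285au and miR-2285cf, were too sparse by adjusted count.

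One member was high in a few libraries of both diets and both arms. miR-2285bg, picked after its values were seen and merged with miR-2285u for the tests because their positions overlap, had 127 reads in FD_CON 5 and 123 in HG_CON 5, and 76 in FD_PHY 2 and 40 in HG_PHY 2. These 4 libraries held 93.4% of its 392 reads. In the other 14 libraries it had at most 6 reads, with a median of 2, and it was not listed in 5 of them. The same 2 numbers were thus high on both diets, although the labels do not say that a number is a cow.

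The reads listed for miR-2285bg lay at the hairpin mir-2285u on chromosome 13, while the RefSeq gene MIR2285BG is on chromosome 8. miR-2285u itself differed in kind in the same 4 libraries. Its raw count was 2 to 2.09 times its adjusted count there, and 5.32 to 5.78 times in the other 14. A single position is listed per name and library. In the 4 libraries it was miR-2285u's own hairpin on chromosome 13, and in the other 14 it was mir-2285o-3 on chromosome 24, within RBBP8, a gene of DNA end resection. The raw level of miR-2285u was not set apart in the 4 libraries, at 4.61 to 12.4 CPM beside 2.90 to 16.1 CPM. miR-2285cj, on the X chromosome, had 5, 15, 14 and 11 reads in the same libraries in the order above, 80.4% of its reads, and at most 4 elsewhere. Its 5 reads in FD_CON 5 were 0.467 CPM, below the 0.633 CPM of HG_CON 1. They came to 0.71 by adjusted count, a ratio of raw to adjusted reads of 7.04. In every other library that lists miR-2285cj the counts were equal.

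**Figure D5:**
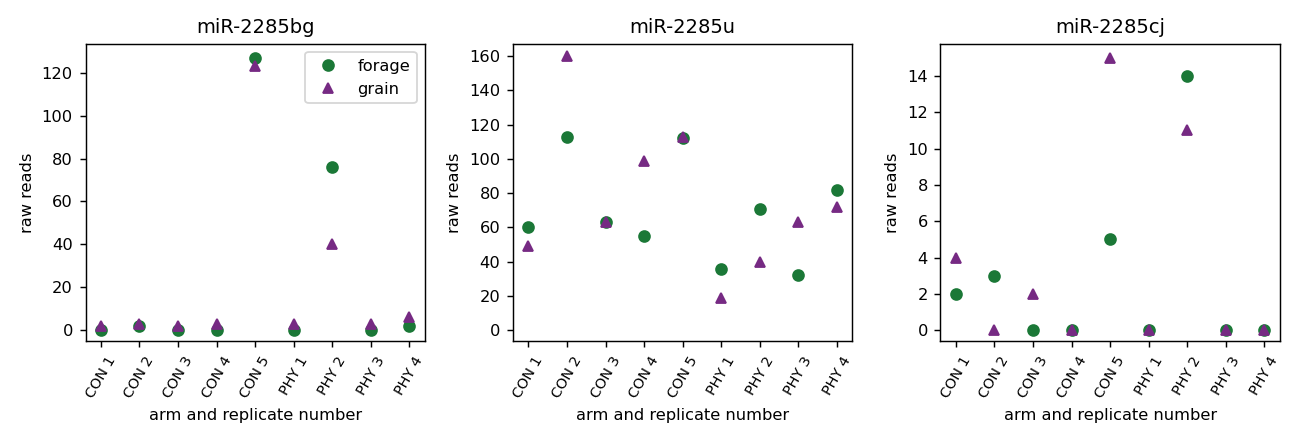
Raw reads of miR-2285bg, miR-2285u and miR-2285cj by arm and replicate number, on forage (circles) and grain (triangles). miR-2285bg is high at CON 5 and PHY 2 on both diets and miR-2285u is not, while miR-2285cj is high at PHY 2 on both diets and at CON 5 on grain.

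Same-numbered libraries were compared over all members. The median absolute log2 difference between forage and grain was smaller at the same number than between different numbers of an arm for 16 of the 30 tested members and larger for 14. Over all 101 names it was smaller for 46, tied for 30 and larger for 25. These 101 include names that carry the same reads, such as miR-2284aa and miR-2284z, and 67 names below 1 CPM. No share over all miRNAs is given beside these counts. Which source the reads of miR-2285bg have was not tested.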

How the data were processed

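Per the labels' protocols, the NucleoSpin miRNA kit served for extraction and the NETflex Small RNA-Seq kit for the libraries. Of tools, bcl2fastq 2.20 and DESeq2 (no version) stand in the submitters' processing notes. Aligner, counter and build: not given in the sources used here. The deposited library files hold, per the file headers, raw read counts per miRNA name and expected counts that the authors divided over the places a read maps to (adjusted counts). Numbers of distinct reads were deposited as counts too.

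Names whose positions overlapped by at least 15 nt were merged, as were bovine and human names of 1 miRNA whose totals lay within 5%, which left 824 miRNAs. The name with the most reads stood for each. Raw counts were tested with edgeR 4.0.16 (R 4.3.3): TMM scaling, filterByExpr, 4 group means over 18 libraries and the quasi-likelihood test, two-sided. P-values were adjusted by Benjamini-Hochberg over 468 miRNAs, with a threshold of 0.05. DESeq2 1.42.0, the adjusted counts (rounded), median-ratio size factors, no filter, no merging, a replicate block and leaving out each library were alternatives. The scripts were tested on simulated data. CPM are raw counts per mega-read after TMM scaling. Library totals were 5.74 to 15.2 M (mega-reads). Replicates are separate libraries, and p-values measure the spread between them. The members and lists were chosen with earlier results of these data known. Named members are the 3 with the lowest p in each comparison, the 10 with the highest level and the 5 with the lowest adjusted-to-raw ratio among those of at least 100 raw reads. Replicate numbers were not taken as pairs, since the labels do not tie them to cows. A deposited table of the whole series was not used here.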

Additional observations from a re-analysis of the deposited data

Results flagged for a closer look

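In the group HG_PHY, miR-2284y had 31.3 CPM by raw counts in HG_PHY 1, while the other libraries of the group lay close together, with 28.7 CPM as the nearest. By adjusted counts the group had 2.40, 2.17, 2.22 and 2.37 CPM, and HG_PHY 1 did not stand apart. miR-2285av, which carries the same reads, had 31.3 CPM in that library as well, so that both stand for 1 observation. This was looked for in 84 sets of library values (groups of members), of which 2 met the criterion of a gap that is large against the range of the group. Chance alone marks about 1 in 20 such sets.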

How the results depend on the processing

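The count of members past the threshold was 0 in every one of the 6 comparisons under all alternatives run. For 26 member changes followed through the alternatives, 613 of 618 values kept their direction and their side of the threshold, and the lowest adjusted p among them was 0.0668 (DESeq2, miR-2285u on grain). Direction turned in 5 values of the diet effect averaged over both arms, all by leaving out 1 library and all near 0. These were miR-2285p without HG_PHY 3 (-0.00398), miR-2284aa without FD_CON 2 (0.0299), FD_PHY 1 (0.0248) or HG_PHY 3 (0.0207), and miR-2285t without HG_PHY 4 (-0.0108). Over all leave-one-out fits these members ranged from -0.00398 to 0.22, from -0.0836 to 0.0299 and from -0.0108 to 0.19. The cause was not tested. The share of reads in the families, 0.140% over all libraries by adjusted counts, was 0.112% by raw counts, 0.162% over bovine names only and 0.133% by reads counted once, the last chosen after seeing the data. Leaving out 1 library kept it between 0.138% and 0.142%.

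With the replicate number as a block, 0 members passed in the 3 diet comparisons and the interaction, and the lowest adjusted p was 0.181 (miR-2285q, log2 0.69), so the block changed no call. The deviations of same-numbered libraries correlated by -0.0164 to 0.393. Of 9 numbers, 8 exceeded their median correlation with other numbers (-0.0713 to -0.00151), 3 were over 0.1 and 2 were best matched to their own number. Deviations were taken from the group means, so a positive correlation at the same number pushes those with other numbers below 0. The 8 of 9 is therefore partly built in and cannot decide whether numbers are pairs. The numbers were not taken as pairs because the labels do not tie them to cows, and not because of these correlations. The comparisons of PHY with CON could not carry the block, since each number belongs to 1 arm. Members under 10 CPM rest on few reads, and 62 of 92 merged members could not be tested at this depth.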
